A study of Mus musculus with 352 samples.

Results

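Voltage-gated ion channels and potassium channels set the electrical behaviour of a skeletal muscle fibre, and their transcripts are described here in 352 mouse samples of tibialis anterior, the mainly fast-twitch muscle along the shin. The genes were chosen by symbol alone. They are the rows of the deposited table whose Ensembl identifier belongs to a protein-coding gene with a symbol starting Kcn, Scn, Cacn, Clcn or Hcn followed by a letter or a number. That rule found 53 of the 14413 genes in the table, out of 151 genes of this kind in the GENCODE M21 annotation. By function they were 12 voltage-gated potassium channel subunits, 7 auxiliary and 4 pore-forming subunits of calcium channels, 6 chloride channels and exchangers, 5 auxiliary subunits or regulators of potassium channels, 4 inward rectifiers, 4 calcium-activated and 3 tandem-pore potassium channels, 3 pore-forming and 3 beta subunits of sodium channels, and 1 hyperpolarization-activated channel. The remaining gene, Scnm1, is matched by its letters only, as it encodes a splicing factor and no channel.

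In a resting fibre, chloride channels and inward-rectifying potassium channels hold the membrane near its resting potential. A nerve impulse opens sodium channels, the action potential spreads into the transverse tubules, and there a voltage-sensing calcium channel is coupled to the calcium release channel of the sarcoplasmic reticulum. Delayed-rectifier and calcium-activated potassium channels repolarize the membrane, and channels closed by ATP tie excitability to the energy state of the fibre. The circadian clock is a loop of transcription factors in which BMAL1, the product of the gene Arntl, forms a pair with CLOCK at E-box motifs. In neurons and heart, clock-driven rhythms of several potassium and sodium channels are known to shape daily changes in excitability.

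The study varied the site of Bmal1 expression, the feeding schedule and age. RE-RE mice carried Bmal1(stopFL/stopFL) alleles, in which a floxed stop cassette blocks Bmal1, with both the Hsa-Cre and the Syt10-Cre transgene. Br-RE mice carried the same alleles with Syt10-Cre(-/tg) for re-expression in brain, and Mu-RE mice with Hsa-Cre(-/tg), driven by a skeletal muscle actin promoter. KO mice carried the stopFL alleles with no Cre, so that all of these genotypes share the stop alleles, and WT mice were wild-type C57BL/6. RE-RE, Br-RE, Mu-RE, KO and WT mice fed ad libitum (ALF) numbered 24, 23, 25, 23 and 23 at an age of 10 to 12 weeks (called 10 weeks from here on), and 24, 22, 24, 24 and 22 at 26 weeks. Under time-restricted feeding (TRF) there were 23 Mu-RE, 23 KO and 24 WT mice at 26 weeks. The old mice, 85 to 116 weeks of age and wild-type, were 24 on TRF and 24 on ALF. Muscles were collected at 6 zeitgeber times (ZT, counted in hours from lights on) at steps of 4 h, with 3 to 5 mice per time and group. A promoter of muscle fibres leaves other cells of the muscle without Bmal1, and whole muscle was sequenced, so fewer cells of a type and less RNA per cell cannot be told apart. Groups named below without a feeding schedule were on ALF.

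Values are log2 FPKM (a fragment count scaled to exon length and library size), a scale on which a difference of 1 is a doubling of the level. Estimated depth was 14800000 to 47600000 reads per library, with a median of 22500000. Female and male means were equal in every gene to within about 1e-05, and in each gene the RE-RE and Br-RE libraries averaged the same as all other libraries of their age. A centring step of this kind sets the absolute level of RE-RE and Br-RE libraries, so they are compared only with each other. Arntl itself did not check the genotype, because reads over the whole gene were at a median of 3.40 in KO and 2.90 in WT muscle at 10 weeks. Dbp, a direct target of BMAL1, did. At 26 weeks it reached at most 0.95 (median 0.22) in KO muscle and between 1.44 and 4.72 (median 3.53) in WT muscle, without overlap. At the other settings the ranges overlapped, with a highest KO library of 0.97 and a lowest WT library of -0.02 at 10 weeks, and 0.91 and 0.75 on TRF, while the medians were 0.21 in KO and 3.32 in WT muscle at 10 weeks and 0.33 and 3.22 on TRF. Its medians at 26 weeks were 3.33 in RE-RE against 0.81 in Br-RE muscle, and 3.14 in Mu-RE muscle. Libraries stood apart in 9 cases, with a median correlation to their own group under 0.94, and 5 marker genes of muscle fibres (Acta1, Ckm, Mylpf, Tnnt3 and Myh4) averaged 12.75 to 13.99.

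The most abundant channel transcripts were those of the excitable fibre membrane and of the tubular calcium channel. Cacng1, the gamma subunit of the tubular calcium channel (ENSMUSG00000020722, GRCm38 chromosome 11, 107703218 to 107716522, minus strand), averaged 7.54 over all libraries. Cacna1s, its pore and voltage sensor (ENSMUSG00000026407, chromosome 1, 136052750 to 136119822, plus strand), averaged 6.80. Also among the 10 highest were the sodium channel beta subunit Scn4b at 6.68, the calcium channel gamma subunit Cacng6 at 6.23, and the voltage-gated potassium channel Kcna7 at 5.98. They were followed by Scn4a, the pore of the muscle sodium channel (ENSMUSG00000001027, chromosome 11, 106318592 to 106353288, minus strand), at 5.79. Kcnj11, the pore of the ATP-sensitive potassium channel, stood at 5.64, and the calcium channel subunits Cacna2d1 and Cacnb1 at 5.26 and 5.25. Clcn1, the chloride channel that carries most of the resting conductance (ENSMUSG00000029862, chromosome 6, 42286685 to 42315756, plus strand), averaged 5.11.

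In all, 29 of the 53 genes had a mean of at least 0, that is 1 FPKM, and entered the main tests among 9862 genes. At the median depth they correspond to 149 to 16400 reads. A further 18 lay between -2 and 0, with 14.6 to 125 reads at their mean level, and are tested in a fit of the 12849 genes with a mean of at least -2. Among them Cacna2d4, Kcna1, Cacna1a, Cacna1g, Cacna1h, Hcn2 and Kcnk6 had a mean under -2 in some groups. They passed that filter through the groups where they were higher. The 6 lowest, among them Kcnab1, Kcne3, Kcnk7, Kcnk5 and Kcng2, were in neither fit and entered only a fit without a filter, used as an alternative. Of the 29 tested genes, 8 were voltage-gated potassium channels, while none of the tandem-pore channels and none of the auxiliary potassium channel subunits reached 1 FPKM. At least 10% of the exon bases were shared with another gene in Cacna1s, with 20.0% (Gm37759), and in Clcn4, with 11.5% (Gm45631), and their values may hold reads of those genes.

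**Figure D1:**
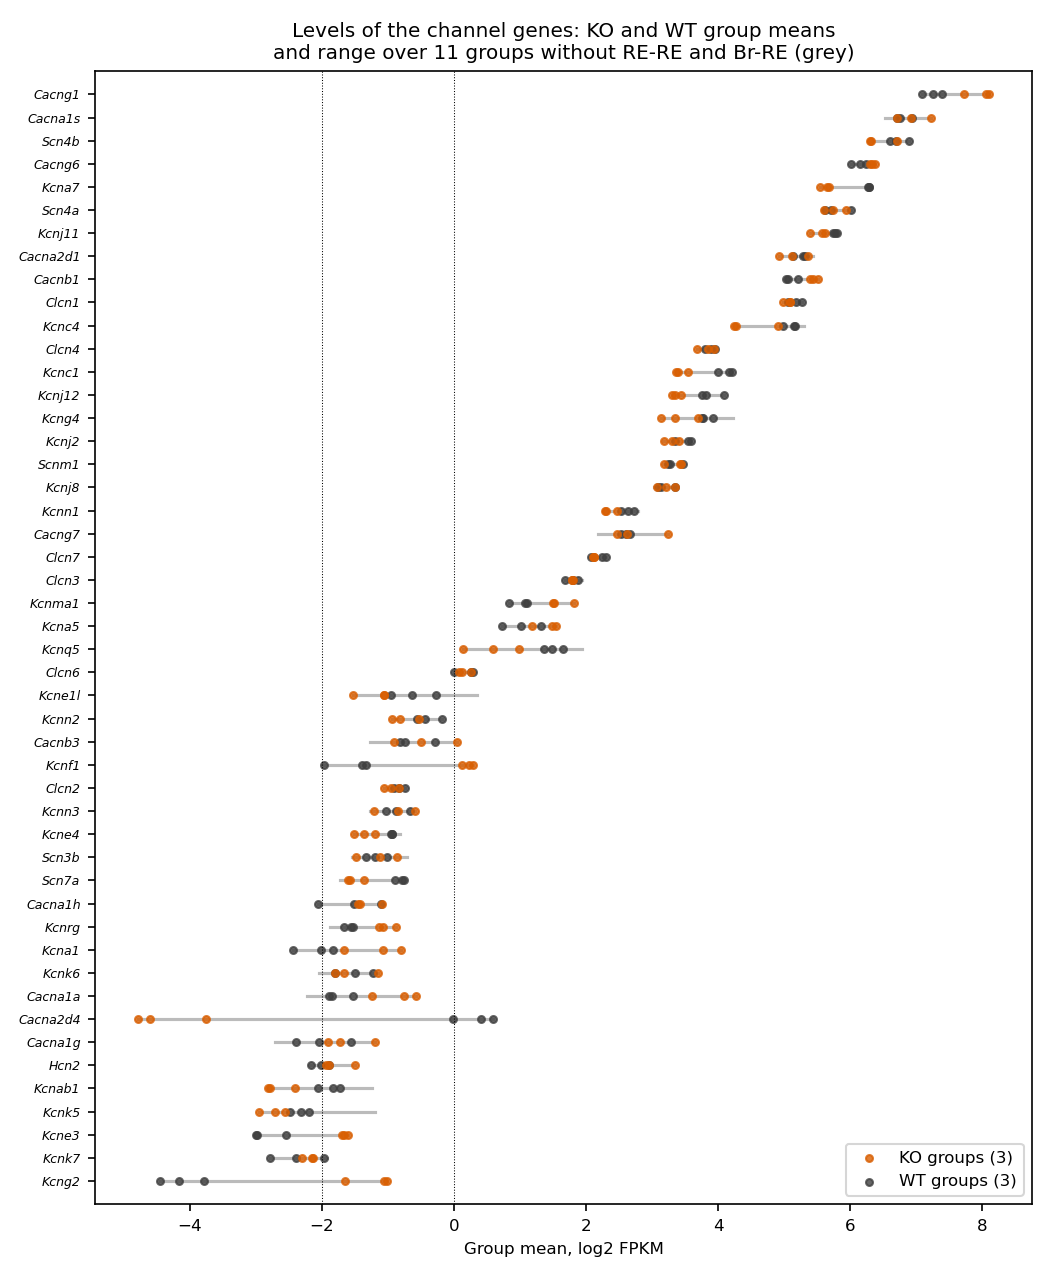
Mean log2 FPKM of 48 of the 53 channel genes (rows, highest at the top) in the KO groups and the WT groups (points), with a grey bar for the range over the means of the 11 groups other than RE-RE and Br-RE. Dotted lines mark 0 and -2. Cacna2d4 has the widest bar, spanning 5.38, and Clcn7 the narrowest, spanning 0.24.

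Across the 11 groups other than RE-RE and Br-RE, channel genes differed widely in how far their level moved. The mean of Clcn7, a chloride-proton exchanger of lysosomes, spanned only 0.24 between its lowest and highest group, and Clcn3 and Clcn4, exchangers of endosomes, spanned 0.25 and 0.28. Scn4a and Clcn1 spanned 0.42 and 0.30. The widest span was 5.38, in Cacna2d4, a calcium channel alpha2-delta subunit known from the retina (ENSMUSG00000041460, chromosome 6, 119236526 to 119352407, plus strand). Its group means were -3.75, -4.79 and -4.60 in KO muscle at 10 weeks, at 26 weeks and on TRF, against 0.59, 0.42 and -0.02 in WT muscle. Kcnf1 and Kcng2, which encode modifier subunits that open no channel on their own, varied as well, with a span of 2.26 for Kcnf1. Neighbouring pairs such as Kcnj11 and Kcnc1 (296 kb apart on chromosome 7), Kcna5 and Kcna1 (105 kb apart on chromosome 6) and Cacng7 and Cacng6 (56 kb apart on chromosome 7) are treated as separate genes.

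Promoter sequences are shown for channel genes that differed by genotype or cycled, because the clock pair BMAL1 and CLOCK binds the E-box CACGTG. RefSeq windows of 300 bases (250 before to 50 after the transcript start, GRCm38.p6) were found for 36 of the 53 genes, 46 windows in all. The E-box occurred in 8 of these windows (17.4%, 7 genes), against 7.15% of all 32851 windows. The D-box, searched as TTATGTAA or TTACGTAA on either strand, occurred in 0 of the 46 windows and in 1.06% of all windows. The ROR element, searched as TAGGTCA or TGGGTCA on either strand, occurred in 2 (4.35%), against 6.45% of all. The E-box genes were Kcne4, Kcnab1, Clcn6, Clcn4, Kcnj2, Kcnk5 and Clcn7, and the ROR element genes were Scn4a and Clcn7. In the lines below, capitals mark an E-box in Kcnj2 (position -84 from the start), 2 E-boxes at the start and a ROR element at -153 in Clcn7, and a ROR element at -142 in Scn4a. The windows of Kcna7 and Kcnc1, genes lowered in KO muscle in all 3 comparisons given next, hold none of these letters.
Kcnj2, chr11:111065914-111066213, plus strand: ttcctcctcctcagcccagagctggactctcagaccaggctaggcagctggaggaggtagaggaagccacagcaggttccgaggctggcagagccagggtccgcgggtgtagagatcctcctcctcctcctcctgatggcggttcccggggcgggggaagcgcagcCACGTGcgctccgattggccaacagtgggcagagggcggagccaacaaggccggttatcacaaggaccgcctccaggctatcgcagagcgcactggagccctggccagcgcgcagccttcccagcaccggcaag
Clcn7, chr17:25133141-25133440, plus strand: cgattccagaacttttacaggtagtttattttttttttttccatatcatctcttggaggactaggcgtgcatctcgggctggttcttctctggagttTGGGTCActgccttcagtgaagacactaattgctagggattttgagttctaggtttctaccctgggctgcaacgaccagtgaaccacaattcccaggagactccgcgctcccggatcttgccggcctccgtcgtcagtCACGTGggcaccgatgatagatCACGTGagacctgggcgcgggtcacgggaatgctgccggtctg
Scn4a, chr11:106349341-106349640, minus strand: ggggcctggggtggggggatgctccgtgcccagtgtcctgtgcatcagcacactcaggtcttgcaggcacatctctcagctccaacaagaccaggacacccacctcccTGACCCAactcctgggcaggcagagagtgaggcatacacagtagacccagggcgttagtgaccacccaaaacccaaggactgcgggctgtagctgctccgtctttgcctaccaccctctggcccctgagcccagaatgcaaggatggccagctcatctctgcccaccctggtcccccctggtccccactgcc
Kcna7, chr7:45405710-45406009, plus strand: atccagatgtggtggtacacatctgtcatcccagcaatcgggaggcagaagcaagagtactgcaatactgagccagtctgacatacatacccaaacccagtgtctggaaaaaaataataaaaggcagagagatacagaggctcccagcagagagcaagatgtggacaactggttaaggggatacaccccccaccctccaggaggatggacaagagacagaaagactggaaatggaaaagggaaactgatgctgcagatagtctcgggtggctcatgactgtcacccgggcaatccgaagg
Kcnc1, chr7:46396218-46396517, plus strand: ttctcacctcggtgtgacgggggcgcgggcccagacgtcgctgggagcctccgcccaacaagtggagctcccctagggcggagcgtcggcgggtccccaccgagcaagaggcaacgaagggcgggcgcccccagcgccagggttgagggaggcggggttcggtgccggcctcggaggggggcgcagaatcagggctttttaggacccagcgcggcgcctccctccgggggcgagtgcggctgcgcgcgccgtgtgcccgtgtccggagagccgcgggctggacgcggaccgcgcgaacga

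At 10 weeks, genes of the tubular calcium channel were higher and several potassium channels of the fibre lower in KO than in WT muscle. Of the 29 tested channel genes, 16 were called in KO against WT muscle (limma, Benjamini-Hochberg adjusted p of 0.05), 9 higher and 7 lower, which is 55.2%, while 41.8% of all 9862 genes were called, 20.3% higher and 21.6% lower. The median difference of the 29 was 0.01, against -0.00 over all genes. Higher were Cacna1s, the only calcium channel pore among the 29, and 4 of the 5 auxiliary subunits among them. Cacng1 lay between 7.30 and 7.99 (median 7.75) in KO muscle and between 6.72 and 7.58 (median 6.99) in WT muscle, a difference of 0.65 (SE 0.06, 1.57-fold, adjusted p = 2.8e-12). The ranges overlapped, with the KO median above the highest WT library. Cacna1s averaged 7.22 ± 0.30 in KO and 6.71 ± 0.28 in WT muscle (SD, n = 23 each), a difference of 0.51 (adjusted p = 3.26e-06 by limma). Cacnb1, the beta subunit that targets the pore to the tubules, was higher by 0.50, and Cacng6 by 0.30. Cacng7, a gamma subunit better known from brain (ENSMUSG00000069806, chromosome 7, 3332955 to 3368221, plus strand), was at 3.24 in KO and 2.54 in WT muscle, higher by 0.71 (adjusted p = 2.19e-10). Cacna2d1 did not pass, with 5.36 in KO and 5.31 in WT muscle.

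Potassium channels went both ways at that age, also within types: 2 voltage-gated channels were higher and 3 lower, 1 inward rectifier was higher and 2 lower, and 1 calcium-activated channel was higher and 1 lower. Kcna7, a channel of the shaker family found in skeletal muscle (ENSMUSG00000038201, chromosome 7, 45405653 to 45409763, plus strand), lay between 5.04 and 5.91 (median 5.69) in KO muscle and between 5.91 and 6.56 (median 6.27) in WT muscle. No KO library reached the lowest WT library, and the difference was -0.64 (SE 0.05, 1.56-fold, adjusted p = 1.28e-13). It was the only gene of the 29 with ranges apart in this comparison, against 108 of all 9862 (1.1%). Kcnc1, a fast delayed rectifier of the shaw family (ENSMUSG00000058975, chromosome 7, 46396497 to 46438704, plus strand), lay between 2.43 and 3.88 (mean 3.37) in KO and between 3.40 and 4.69 (mean 4.17) in WT muscle. Its difference of -0.81 (SE 0.08, 1.76-fold, adjusted p = 6.26e-12) came with overlapping ranges. Kcnq5, a channel of the muscarine-regulated type, was lower by 0.50, and the inward rectifiers Kcnj2 and Kcnj12 were lower by 0.41 and 0.31. Kcnn1, a small-conductance calcium-activated channel, was lower by 0.24. Higher in KO muscle were Kcna5 (by 0.49), known from heart and vascular muscle, Kcnma1 (by 0.40), the large-conductance calcium-activated channel, and Kcnj8 (by 0.24), the ATP-sensitive pore of vascular smooth muscle. The main sodium and chloride channels did not pass. Scn4a was at 5.93 in KO and 5.70 in WT muscle (adjusted p = 0.0564), Clcn1 at 5.08 and 5.05, and Kcnj11 at 5.62 and 5.80 (adjusted p = 0.0736), in each case KO before WT. Clcn7 was lower by 0.13. Of the 16 calls, 13 were kept under each alternative tried, and Kcnj8, Clcn7 and Kcnma1 each lost theirs on omitting 1 animal per time point.

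Cacna2d4 showed the widest genotype difference of any channel gene. Its mean of -1.72 over all libraries passed the filter of -2 only through other groups, as its KO group means lay under -2. Kcng2, with higher means in KO than in WT muscle, averaged -2.85 and stayed below that filter. At 10 weeks Cacna2d4 lay between -4.90 and -2.67 (median -3.65) in KO muscle and between -0.25 and 1.26 (median 0.72) in WT muscle. The groups did not overlap, as in 1.07% of the 12849 genes of its fit, and the difference was -4.32 (SE 0.15, 20.0-fold, adjusted p = 8.06e-26). The mean level corresponds to 15.8 reads at the median depth in KO and 321 reads in WT muscle, so the gene is of low abundance even where it is highest. At 26 weeks it lay between -6.02 and -3.50 (median -4.77) in KO and between -0.33 and 1.13 (median 0.38) in WT muscle, again without overlap (as in 1.14% of the genes of that fit). That difference was -5.22 (SE 0.17, 37.3-fold, adjusted p = 2.8e-27), and 7.73 reads at the median depth stand behind the KO mean, so the size of the fold rests on few reads. On TRF the difference was -4.63 (24.7-fold).

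Other genes of low abundance also differed at 10 weeks. Among the 18 genes between -2 and 0, 10 were called, with 7 rising and 3 falling in KO muscle, while 39.9% of the 12849 genes of that fit were called. Kcnf1, a modifier subunit, was at 0.12 ± 0.67 in KO and -1.33 ± 0.81 in WT muscle (SD, n = 23 each), a difference of 1.45. Kcna1, a delayed rectifier of nerve and, in some fibres, muscle, was at -0.80 in KO and -2.01 in WT muscle, a difference of 1.21 (SE 0.15). Its WT mean lay under the filter of -2 and corresponds to 26.7 reads at the median depth. Cacna1a, the pore of the calcium channel of motor nerve terminals, was higher by 0.64, and the T-type channel Cacna1h by 0.42. Hcn2, Kcnrg and Cacnb3 were higher by 0.69, 0.59 and 0.33. Scn7a, a sodium-sensing relative of the sodium channels, was lower by 0.59, and Kcne1l, an auxiliary subunit, by 0.57. The lower-abundance calls that some alternative removed were those of Kcnrg, Cacnb3 and Kcne1l.

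**Figure D2:**
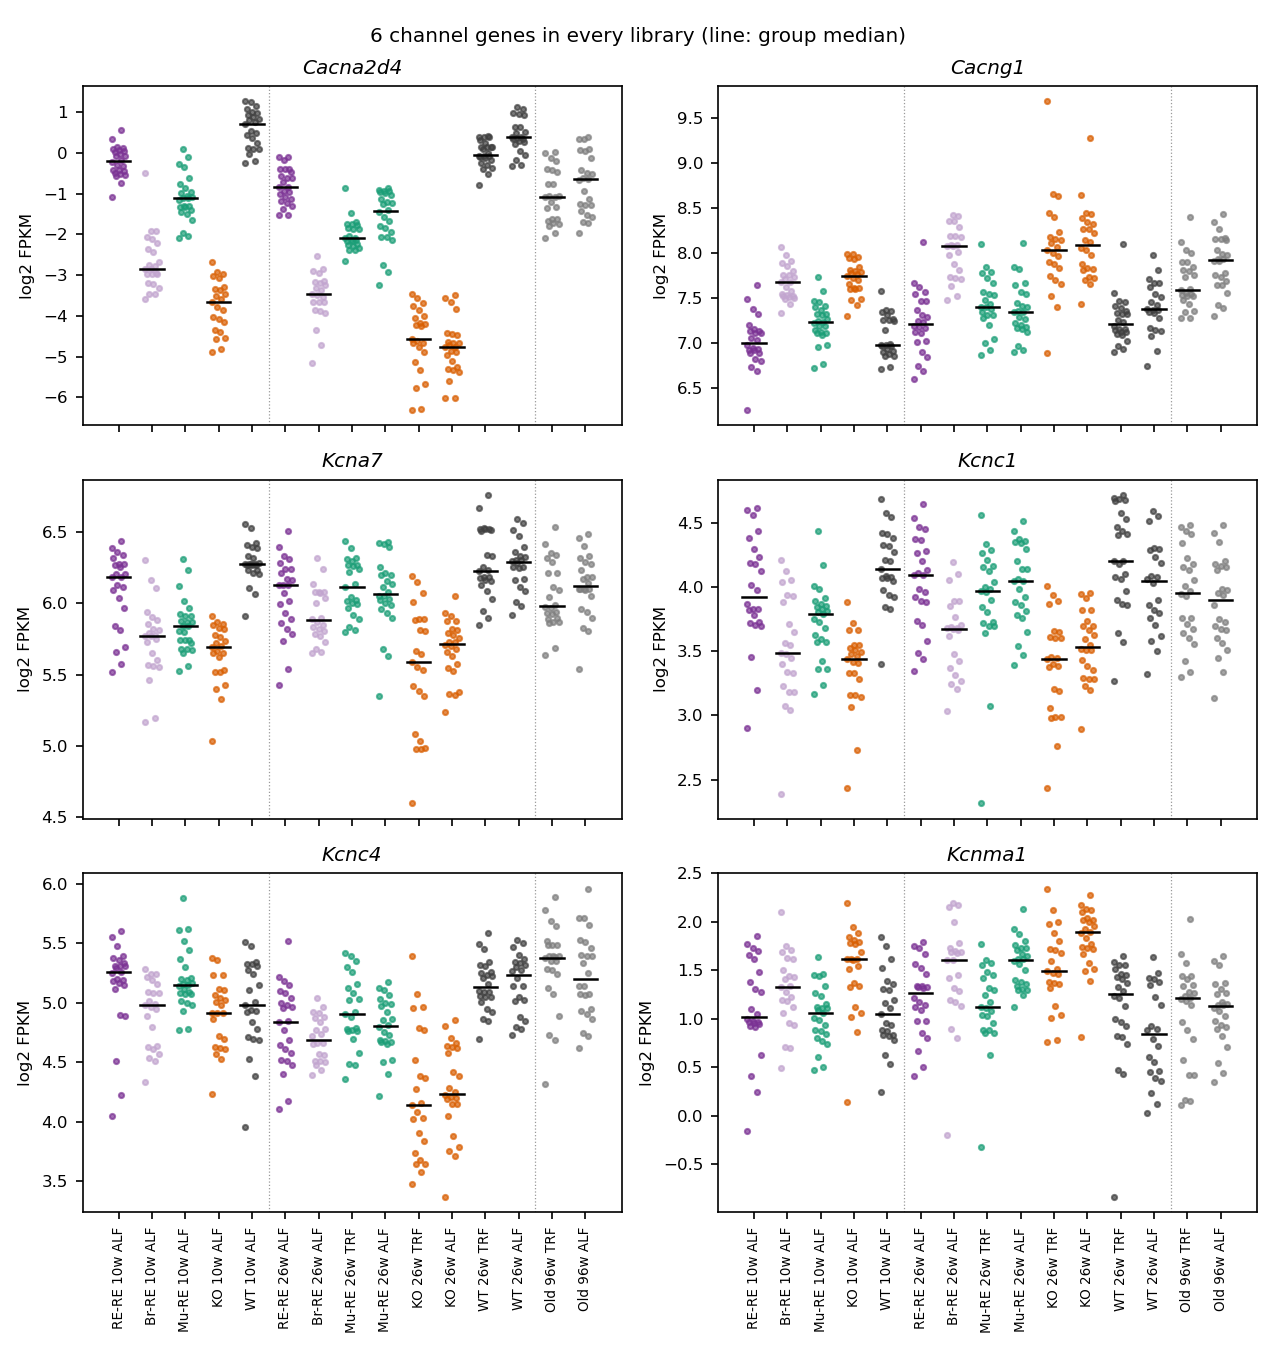
Log2 FPKM of Cacna2d4, Cacng1, Kcna7, Kcnc1, Kcnc4 and Kcnma1 in every library of the 15 groups (points) with the group median (line). Levels of RE-RE and Br-RE libraries are comparable only with each other. KO libraries of Cacna2d4 lie at -2.67 or below at 10 weeks and WT libraries at -0.25 or above, and Kcna7 shows the same separation on a smaller scale.

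At 26 weeks, several potassium channels and the sodium channel beta subunit Scn4b were lower in KO than in WT muscle. Of the 29 genes 14 were called, 5 higher and 9 lower in KO against WT muscle (48.3%, with 46.3% called over all genes, 24.4% higher and 22% lower (2165 genes)), with a median of -0.07 against 0.00. Kcnc4, another shaw-family channel (ENSMUSG00000027895, chromosome 3, 107438303 to 107459552, minus strand), lay between 3.37 and 4.86 (median 4.24) in KO and between 4.73 and 5.53 (median 5.24) in WT muscle. The KO median lay under the lowest WT library, and the difference was -0.90 (SE 0.09, 1.87-fold, adjusted p = 4.39e-11). Kcnq5 was lower by 1.06 (SE 0.13), Kcna7 by 0.58, Kcnc1 and Kcnj12 by 0.46 each, Kcnj2 by 0.25 and Kcnn1 by 0.17. Scn4b was at 6.30 in KO and 6.69 in WT muscle, lower by 0.39. The pore Scn4a did not pass, with 5.74 in KO and 5.61 in WT muscle (adjusted p = 0.346). Kcnma1 (ENSMUSG00000063142, chromosome 14, 23289431 to 24014491, minus strand) lay between 0.81 and 2.28 (median 1.89) in KO and between 0.03 and 1.64 (median 0.84) in WT muscle. Its rise of 0.99 (SE 0.10, 1.99-fold, adjusted p = 1.14e-10) was the largest among those of the 29 genes that rose, with overlapping ranges. Kcna5 was higher by 0.81, Cacng1 by 0.71 and Cacnb1 by 0.39. Kcnn1 and Kcnj2 were among those that lost their call under at least 1 alternative.

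Among the 18 low genes at 26 weeks, 5 rose and 5 fell in KO muscle (45.1% of the genes of that fit were called). Kcnf1 was higher by 2.24 (SE 0.23, 4.73-fold), Kcna1 by 1.36, Cacna1a by 1.09, Cacna1h by 0.65 and Cacna1g, also a T-type channel, by 0.48. The WT means of Kcna1 (-2.43, 19.9 reads at the median depth) and of Cacna1h (-2.06) lay under the filter of -2. Beside Cacna2d4, Scn7a was lower by 0.85, Kcne4, an auxiliary subunit, by 0.56, Kcnn2, a small-conductance channel, by 0.48 and Scn3b, a sodium channel beta subunit, by 0.45. The calls of Cacna1g, Kcne4 and Scn3b were lost under some alternative. Kcnn3, a small-conductance channel that returns in denervated muscle, was at -0.59 in KO and -0.67 in WT muscle and did not pass (adjusted p = 0.751).

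On TRF at 26 weeks, more of the channel genes were called in KO against WT muscle, and most of them were lower. Of the 29, 22 were called, 5 higher and 17 lower (75.9%, with 51.8% over all genes, 25.0% higher and 26.9% lower), and the median was -0.20 against -0.00. With the library slope of values on gene length as a covariate 14 were called, 4 higher and 10 lower, and the calls of Scn4a, Kcnj11, Clcn1, Clcn4, Clcn6, Clcn7, Cacna2d1 and Scnm1 were among those lost. That slope averaged -0.292 in KO and -0.232 in WT muscle on TRF, and its part in the other calls was not tested. Among those kept under each alternative were the falls of Kcnq5 (by 1.21), Kcnc4 (by 0.89), Kcnc1 (by 0.81), Kcnj12 (by 0.80), Kcng4 (by 0.77), Kcna7 (by 0.72), Scn4b (by 0.57) and Kcnn1 (by 0.40), with Kcng4 a modifier subunit of fast fibres. Also kept were the rises of Cacng1 (by 0.82) and Cacng6 (by 0.20). Kcnq5 lay between -0.85 and 1.41 (median 0.05) in KO and between 0.24 and 1.87 (median 1.38) in WT muscle. Kcnma1 and Cacnb1 were higher by 0.42 and 0.22, and by 0.77 and 0.20 with the length covariate. Scn4a was at 5.60 ± 0.42 in KO (n = 23) and 6.01 ± 0.32 in WT muscle (SD, n = 24), a difference of -0.41 (adjusted p = 0.0004 by limma) that was -0.15 with the length covariate (adjusted p = 0.0517). Kcnj11 differed by -0.34, and by -0.19 with the covariate (adjusted p = 0.0581). Cacna1s did not pass, with a difference of -0.21, or 0.04 with the covariate.

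Among the 18 low genes on TRF, 3 rose and 8 fell in KO muscle, where 49.1% of the genes of that fit were called. Kcnf1 was higher by 1.63, Cacna1a by 0.97 and Scn3b by 0.33, while Kcne1l was lower by 0.78, Scn7a by 0.73 and Kcnn2 by 0.64. Kcne4, Cacna1h and Kcnk6 were lower by 0.46, 0.35 and 0.30. The direction of Scn3b and of Cacna1h was opposite to that on ALF at 26 weeks, and Cacna1h, Kcnk6 and Scn3b lost their calls under some alternatives.

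The 3 comparisons of KO with WT muscle use separate animals. Called in the same direction in all 3 were 8 of the 29 genes (27.6%), against 1779 of all 9862. Cacnb1, Cacng1 and Kcnma1 were higher in each, and Kcna7, Kcnc1, Kcnj12, Kcnn1 and Kcnq5 lower. Of the 18 low genes, Cacna1a and Kcnf1 were higher and Cacna2d4 and Scn7a lower in all 3. Kcng2, a modifier subunit below both filters, had group means of -1.65, -1.06 and -1.02 in KO muscle at 10 weeks, at 26 weeks and on TRF, against -3.79, -4.45 and -4.16 in WT muscle. Of the other genes below both filters, group means outside RE-RE and Br-RE ran from -2.81 to -1.24 (Kcnab1, an auxiliary subunit), -3.00 to -1.61 (Kcne3, another), from -2.95 to -1.20 (Kcnk5) and -2.79 to -1.93 (Kcnk7), both of the tandem-pore family.

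**Figure D3:**
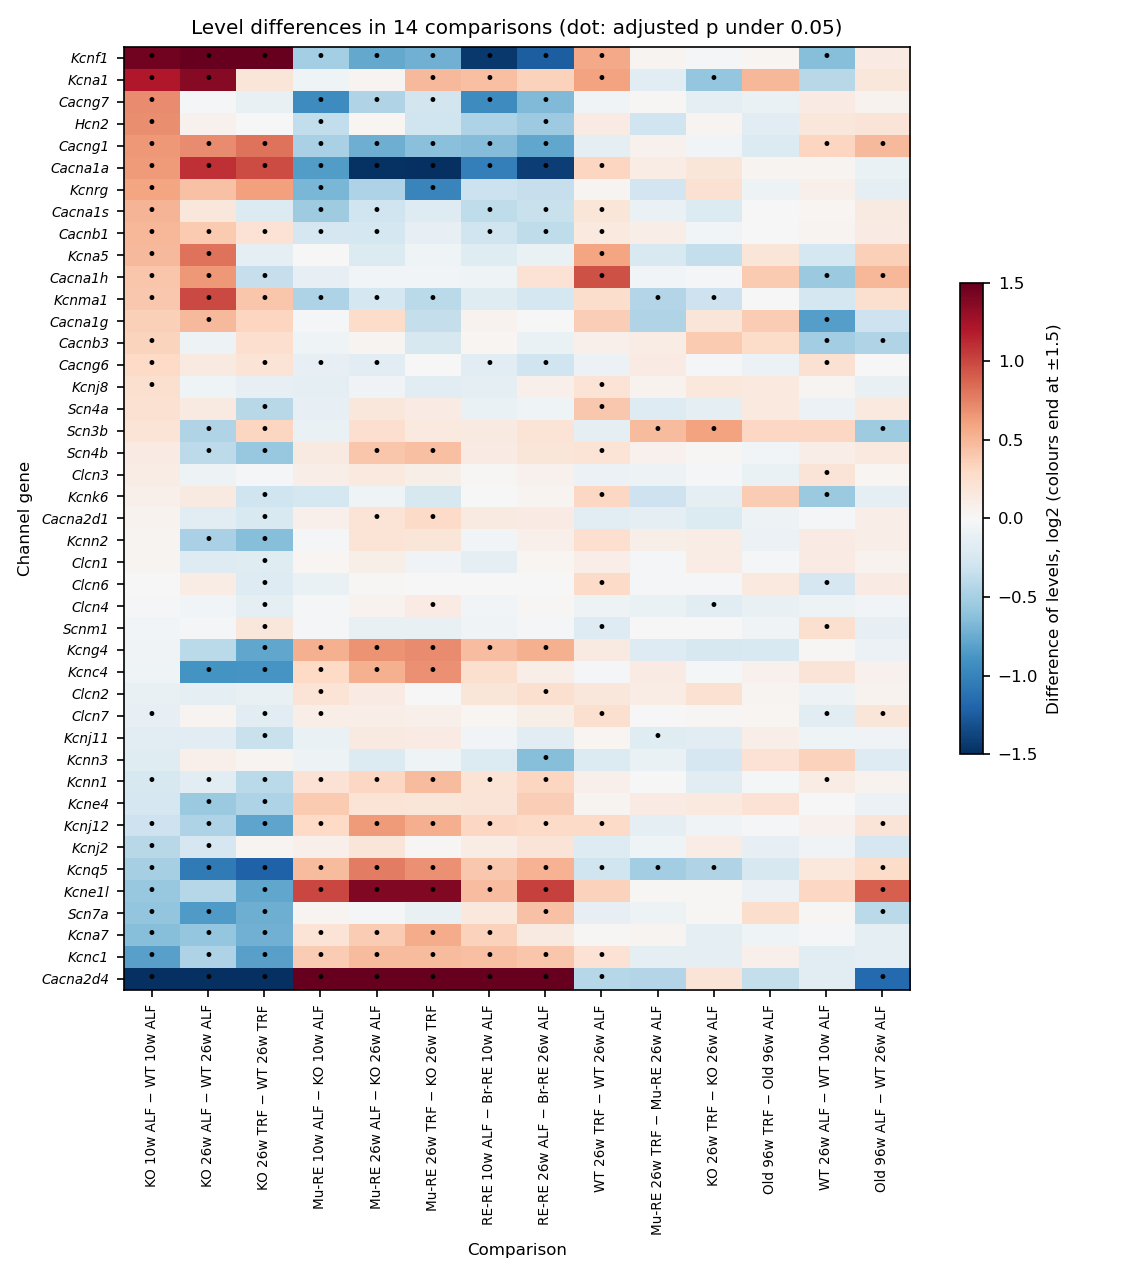
Log2 differences of 43 channel genes (rows, ordered by the difference of KO and WT muscle at 10 weeks) in 14 comparisons between groups (columns, the group named first minus the second), with colours ending at -1.5 and 1.5 and a dot where the adjusted p was under 0.05. In the 3 columns of KO against WT muscle Cacng1, Cacnb1 and Kcnma1 are higher and Kcna7, Kcnc1 and Kcnj12 lower.

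Partners of these channels were read from a list of 31 genes, of which 18 were tested. Beside the counts of this paragraph, 41.8%, 46.3% and 51.8% of all genes were called at 10 weeks, at 26 weeks and on TRF. At 10 weeks 8 rose and 5 fell in KO muscle, led by Fgf11 (1.83), whose family binds the tail of sodium channels, Atp1b1 (-1.13), a sodium pump subunit, and Lrrc38 (0.98), an auxiliary subunit of the large-conductance potassium channel. At 26 weeks 9 were higher and 2 lower, led by Rrad (2.99), a small GTPase that binds calcium channel beta subunits, Fgf11 (1.93) and the membrane adaptor Ank2 (0.86). On TRF 5 were higher and 7 lower, with Rrad at 3.27, Fgf11 at 1.89 and the kinase Sgk1 at -0.68. Marker genes of other cells moved as well. All 3 tested denervation markers (Chrna1, Myog and Gadd45a) were higher in KO muscle at 10 weeks, and 2 of 3 at 26 weeks and on TRF. Their list summed to a median of 34.2 FPKM (range 20.8 to 67.8) in KO and 17.2 (range 12.2 to 55.6) in WT muscle at 26 weeks, and Chrng, the fetal receptor subunit, was near the floor at a mean of -4.44. Endothelial markers were higher in 3 of 4 at 10 weeks and in 4 of 4 at 26 weeks, and lower in 1 of 4 on TRF. Their summed level at 26 weeks was 57.0 FPKM (range 29.7 to 96.1) in KO and 34.4 (range 14.7 to 59.5) in WT muscle. Of 5 vascular mural markers 2 were higher and 1 lower at 10 weeks, 3 higher at 26 weeks and 4 lower on TRF. Their summed level was at a median of 128 FPKM (range 84.3 to 162) in KO and 140 (range 110 to 177) in WT muscle on TRF. All 5 fibre markers were higher at 10 weeks (median 0.32), 2 at 26 weeks, and 1 was higher and 1 lower on TRF. Sdc4, the tested satellite cell marker, was higher in all 3 comparisons. Of 3 Schwann and nerve markers 1 was higher at 10 weeks, 1 higher at 26 weeks and 3 lower on TRF. Of 2 fibroblast markers 1 was lower at each age, and on TRF 1 was higher and 1 lower. Of 2 macrophage and lymphoid markers 2, 1 and 1 were lower, of 2 slow fibre markers 0, 1 and 1 were higher and 1 was lower on TRF, and both red blood cell markers did not pass. The part of these cells in the channel differences was not tested.

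With Bmal1 expressed in muscle fibres only, several calcium channel subunits were lower and most voltage-gated potassium channels higher than in KO muscle. Of the 5 tested auxiliary calcium channel subunits 4 were lower at 10 weeks, 4 were lower and 1 higher at 26 weeks, and 2 were lower and 1 higher on TRF. In Mu-RE against KO muscle at 10 weeks 17 of the 29 genes were called, 10 higher and 7 lower (34.6% of all genes were called, 17.4% higher and 17.2% lower). At 26 weeks it was 17, 11 higher and 6 lower (12 and 4 after quantile normalization, with 33.9% of all genes called, 17.3% higher and 16.6% lower), and on TRF 14, 11 higher and 3 lower (36.5%, 21.8% higher and 14.7% lower). Of these calls 11, 12 and 10 were kept under each alternative at 10 weeks, at 26 weeks and on TRF. These comparisons share the KO animals with those above, so the values are given side by side and no overlap is drawn. Cacng7 lay between 1.69 and 2.81 (median 2.27) in Mu-RE and between 2.83 and 3.67 (median 3.31) in KO muscle at 10 weeks. No Mu-RE library reached the lowest KO library, and the difference was -0.94 (SE 0.08, 1.92-fold, adjusted p = 1.35e-13). It was the only 1 of the 29 genes with ranges apart there, against 106 of all 9862 (1.07%). Cacng1 was lower in Mu-RE than in KO muscle by 0.49 at 10 weeks, 0.73 at 26 weeks and 0.63 on TRF. Cacna1s was lower by 0.53 and 0.30 at 10 and 26 weeks and Cacnb1 by 0.25 and 0.27, and neither passed on TRF (-0.20 and -0.12). The subunit that was higher was Cacna2d1, by 0.21 at 26 weeks and 0.28 on TRF. The call was lost without replicate 3 at 26 weeks, and on TRF under quantile normalization and without replicate 2 or replicate 3. Endothelial markers were lower in Mu-RE than in KO muscle in 4 of 4 at 10 weeks (median -0.25) and passed in 0 of 4 at 26 weeks and on TRF. Their summed level at 10 weeks was at a median of 51.5 FPKM (range 40.4 to 68.7) in Mu-RE and 63.8 (range 42.7 to 77.8) in KO muscle. Of 5 mural markers 2 were lower at 10 weeks, 0 passed at 26 weeks and 2 were higher on TRF. Of 3 denervation markers 0, 2 and 1 were lower, of 5 fibre markers 3, 1 and 1 were lower, and the satellite cell marker was lower and 1 of 2 slow fibre markers higher in all 3 comparisons. On TRF 1 of 3 Schwann and nerve markers was higher and 1 of 2 macrophage and lymphoid markers lower. The part of these cells in the channel differences was not tested.

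Voltage-gated potassium channels rose in Mu-RE muscle, with 6 of 8 higher and 1 lower at 10 weeks, 6 higher at 26 weeks and 5 higher on TRF. Kcng4 was higher by 0.54, 0.67 and 0.71 at 10 weeks, at 26 weeks and on TRF, Kcnq5 by 0.47, 0.77 and 0.69, Kcnc4 by 0.30, 0.54 and 0.68, and Kcnc1 by 0.38, 0.47 and 0.48. Kcna7 was at 5.84 ± 0.19 in Mu-RE (n = 25) and 5.65 ± 0.21 in KO muscle (SD, n = 23) at 10 weeks, higher by 0.20, with rises of 0.39 at 26 weeks and 0.55 on TRF. Its range in Mu-RE muscle at 10 weeks, 5.53 to 6.31, reached that of WT muscle, 5.91 to 6.56, from below. Kcnj12 was higher by 0.29, 0.64 and 0.55, and Kcnn1 by 0.21, 0.31 and 0.48. Kcnma1 was lower by 0.47, 0.26 and 0.40. Scn4a, Clcn1 and Kcnj11 did not pass at 10 weeks, with differences of -0.13, 0.02 and -0.10. Cacna2d4 was at -1.11, -1.60 and -2.01 in Mu-RE muscle, against -3.75, -4.79 and -4.60 in KO and 0.59, 0.42 and -0.02 in WT muscle. Its rises of 2.67, 3.24 and 2.60 over KO muscle came with ranges that did not overlap (1.04%, 0.685% and 0.763% of all 12849 genes of that fit had ranges apart).

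Of the 18 low genes, 8, 5 and 7 were called in Mu-RE against KO muscle at 10 weeks, at 26 weeks and on TRF (31.5%, 31.7% and 33.9% over the genes of that fit). Cacna1a was lower than in KO muscle by 0.84, 1.49 and 1.56. At 26 weeks it lay between -2.78 and -1.69 (median -2.27) in Mu-RE and between -1.38 and -0.33 (median -0.67) in KO muscle, without overlap (as in 0.685% of the genes of that fit). Kcne1l was higher by 1.01, 1.38 and 1.39, while Kcnf1 was lower by 0.51, 0.77 and 0.72. Kcnrg, a regulator of potassium channels, was lower by 0.68 at 10 weeks and 0.99 on TRF. At 10 weeks Hcn2 was lower by 0.37 and Clcn2, a widely expressed chloride channel, higher by 0.20. The calls of Kcnf1 were lost under some alternatives in all 3 comparisons. Kcna1 did not pass at 10 weeks, where it was at -0.86 in Mu-RE and -0.80 in KO muscle, against -2.01 in WT muscle.

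RE-RE and Br-RE mice give the effect of the muscle clock where the brain clock is present, in animals that enter none of the comparisons above. At 10 weeks 13 of the 29 genes were called in RE-RE against Br-RE muscle, 7 higher and 6 lower (32.2% of all genes, 14.8% higher and 17.4% lower). The split was 9 and 4 after quantile normalization and 4 and 11 with the length covariate. At 26 weeks 11 were called, 6 higher and 5 lower (9 and 4 after quantile normalization, with 35.3% of all genes called, 16.5% higher and 18.9% lower). Cacng7 was at 2.21 ± 0.44 in RE-RE (n = 24) and 3.16 ± 0.25 in Br-RE muscle (SD, n = 23) at 10 weeks, lower by 0.95, and lower by 0.66 at 26 weeks. Cacng1 was lower by 0.65 and 0.78 at 10 and 26 weeks, Cacnb1 by 0.30 and 0.38, Cacna1s by 0.38 and 0.33 and Cacng6 by 0.17 and 0.30. With the length covariate at 10 weeks Cacna1s was at -0.62 and Kcnc1 at 0.28. Kcnc1 was higher by 0.45 and 0.41, Kcnq5 by 0.40 and 0.52, Kcng4 by 0.47 and 0.54, Kcnj12 by 0.31 and 0.28 and Kcnn1 by 0.21 and 0.32. Kcna7 was higher by 0.35 at 10 weeks, with 6.09 in RE-RE and 5.74 in Br-RE muscle, and did not pass at 26 weeks (0.13, adjusted p = 0.146). The calls of Kcnj12 and Kcng4 at 10 weeks were lost with the length covariate, and those of Cacna1s at both ages and of Cacng6 at 10 weeks after quantile normalization. In all, 7 of the 13 calls at 10 weeks and 9 of the 11 at 26 weeks were kept under each alternative. Cacna2d4 lay between -1.54 and -0.09 (median -0.83) in RE-RE and between -5.15 and -2.54 (median -3.47) in Br-RE muscle at 26 weeks. The groups did not overlap at 26 weeks, as in 0.739% of the 12849 genes of that fit, and the difference was 2.74 (SE 0.16). At 10 weeks it was 2.47, with RE-RE libraries from -1.09 to 0.57 and Br-RE libraries from -3.57 to -0.50, which overlapped.

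Of the low genes in these animals, 5 were called at 10 weeks and 8 at 26 weeks (29.2% and 33.4% over the genes of that fit). Kcnf1 was lower in RE-RE muscle by 1.45 and 1.23, and Cacna1a by 1.03 and 1.41. Cacna1a ranges were apart at 26 weeks, as in 0.739% of the genes of that fit. Kcne1l was higher by 0.46 and 1.03, the first of these lost under most alternatives. At 26 weeks Scn7a and Clcn2 were higher by 0.44 and 0.24 and Hcn2 lower by 0.55. At the same age Kcnn3 was at -1.09 in RE-RE and -0.44 in Br-RE muscle, lower by 0.64. The call of Kcnn3 was lost on omitting 1 animal per time point.

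Loss and restoration can be set side by side here, because KO and WT animals do not overlap with RE-RE and Br-RE animals. At 10 weeks 11 of the 29 genes were called in both comparisons and all 11 differed in opposite directions, 68.8% of the genes called on loss and 84.6% of those called on restoration. Over all genes 2132 were called in both, 2101 of them in opposite directions, which are 51.7% and 67.1% of the 2 lists. At 26 weeks 6 channel genes were called in both, all opposite (42.9% and 54.5%), against 2452 over all genes, of which 2427 were opposite (53.6% and 70.4%). Of the low genes, 5 were called in both at 10 weeks, 4 of them opposite, and 4 at 26 weeks, all opposite. Kcna1 was the exception there, at 1.21 in KO against WT and 0.46 in RE-RE against Br-RE muscle. In the 5 comparisons that restore Bmal1 in muscle, 7 of the 29 genes (24.1%) were called in the same direction, against 1293 of all genes (13.1%). Kcnc1, Kcng4, Kcnj12, Kcnn1 and Kcnq5 were higher in each and Cacng1 and Cacng7 lower.

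**Figure D4:**
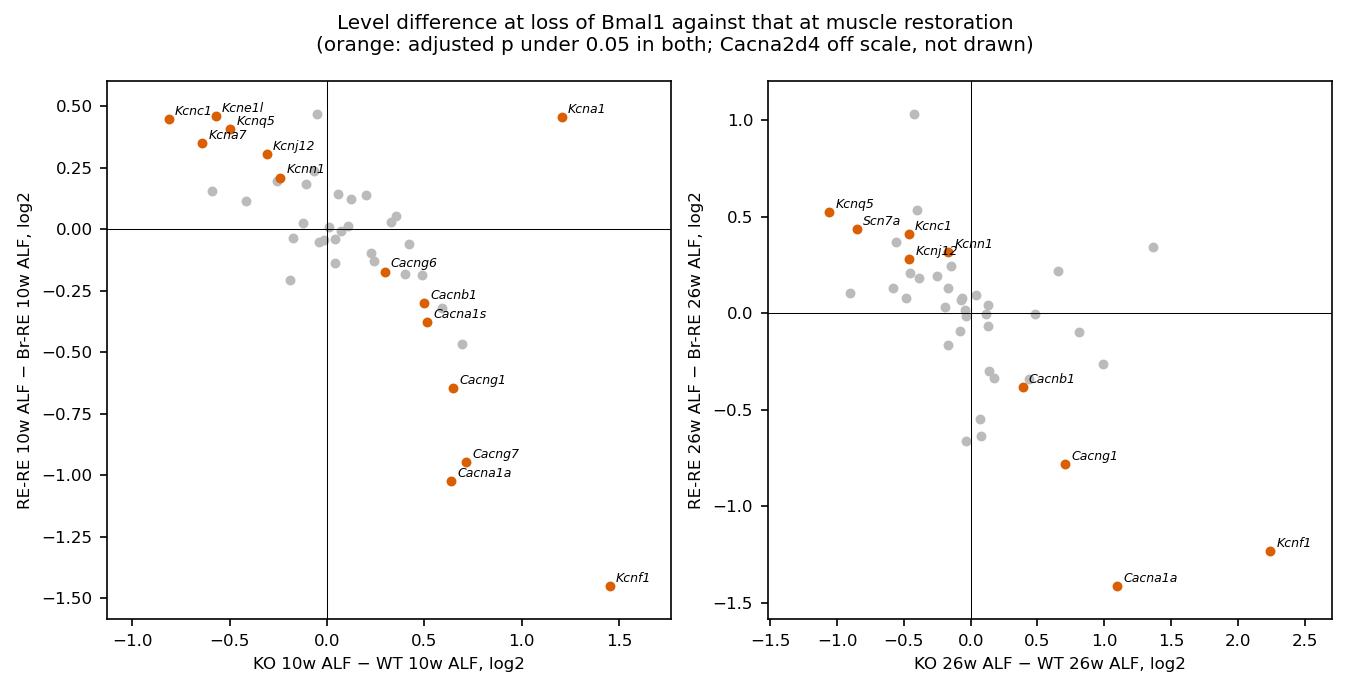
Log2 difference on loss (KO minus WT, horizontal) against that on restoration (RE-RE minus Br-RE, vertical) for channel genes at 10 weeks and 26 weeks, with genes called in both comparisons in orange. The 14 orange points at 10 weeks and 9 at 26 weeks, low genes included, lie in the upper left and lower right except Kcna1 at 10 weeks, and Cacna2d4 lies beyond the axes and is not drawn.

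Whether the effect of the muscle clock depended on the brain clock was tested as (RE-RE minus Br-RE) minus (Mu-RE minus KO). At 10 weeks 0 of the 29 genes were called by limma (0 at an unadjusted p under 0.05, with 0.0203% of all genes called). At 26 weeks 0 were called (5 at an unadjusted p under 0.05, with 0.0% of all genes called). This does not show that the effects were the same. Family medians of this difference lay within 0.16 of 0 at 10 weeks, from -0.08 to 0.16, and from -0.23 to 0.09 at 26 weeks.

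The partner list moved in the same comparisons. Between RE-RE and Br-RE muscle 32.2% of all genes were called at 10 weeks and 35.3% at 26 weeks. In RE-RE against Br-RE muscle 1 partner was higher and 7 lower at 10 weeks, led by Fgf11 (-1.21), Ank2 (-0.74) and Lrrc38 (-0.56). At 26 weeks 3 were higher and 9 lower, led by Rrad (-3.14), Fgf11 (-1.72) and Ank2 (-0.75). Denervation markers were lower in 1 of 3 at 10 weeks and in 2 of 3 at 26 weeks, where the list summed to a median of 16.0 FPKM (up to 131) in RE-RE and 30.1 (up to 51.8) in Br-RE muscle. Mural markers were higher in 3 of 5 at 10 weeks and in 1 of 5 at 26 weeks. Summed medians of other lists are given in FPKM, RE-RE against Br-RE at 10 and then 26 weeks, with overlapping ranges. Satellite cell markers were at 10.3 against 15.6 and 8.32 against 15.4, fibre markers at 48400 against 55100 and 50900 against 55100. Endothelial markers were at 58.8 against 51.7 and 44.6 against 47.7. Schwann and nerve markers were at 24.2 against 18.9 and 15.7 against 13.5. Their part in the channel differences was not tested.

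The effect of Bmal1 loss changed with age for 7 of the 29 genes (18.8% of all genes, 10.6% positive and 8.17% negative), tested as the KO-WT difference at 26 weeks minus that at 10 weeks. Kcnc4 had the widest change, -0.83 (SE 0.14, adjusted p = 3.13e-06), as its KO-WT difference was -0.90 at 26 weeks and -0.07 at 10 weeks. Cacng7 changed by -0.75, with -0.03 at 26 weeks and 0.71 at 10 weeks. Scn4b changed by -0.51, with -0.39 at 26 weeks and 0.12 at 10 weeks. Kcnq5 changed by -0.56, Kcnma1 by 0.59 and Kcnc1 by 0.35. Kcnq5 and Kcnc1 lost these calls under at least 1 alternative, and with the length covariate 11 genes were called, 1 higher and 10 lower. Of the low genes Cacna2d4 (-0.89), Kcnn2 (-0.53) and Cacna1a (0.46) were called, and the Cacna2d4 value was 0.04 with 1 FPKM added, a scale that flattens low values.

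In WT muscle, most channel genes that were called in TRF against ALF were higher on TRF. Of the 29 genes 13 were called in TRF against ALF, 11 higher and 2 lower (41.0% of all genes, 20.9% higher and 20.1% lower), with a median of 0.10 against 0.01. With the length covariate the split was 7 and 5. Leaving out 1 animal per time point left 3 to 13 calls, and only Scn4a and Kcna5 kept theirs under each alternative. Scn4a lay between 5.04 and 6.37 (median 6.04) on TRF and between 5.08 and 6.15 (median 5.51) on ALF. The ranges overlapped almost wholly, and the difference was 0.40 (SE 0.08, 1.32-fold, adjusted p = 0.000282), or 0.24 with the length covariate (adjusted p = 0.00708). Kcna5 was at 1.32 ± 0.41 on TRF (n = 24) and 0.73 ± 0.60 on ALF (SD, n = 22), higher by 0.59. Among the others, Clcn6, an endosomal exchanger, was higher by 0.29, Kcnj12 by 0.28 and Clcn7 by 0.24, while Kcnq5 was lower by 0.30 (-0.48 with the length covariate). Of the low genes 5 were higher and 1 lower (37.0% of that fit called), with Cacna1h higher by 0.96 and Kcna1 by 0.60 and Cacna2d4 lower by 0.43. Mural markers were higher in 4 of 5 (Acta2 0.74, Myh11 0.67, Pdgfrb 0.62, Tagln 0.47) and endothelial markers in 3 of 4. The length slope averaged -0.232 on TRF and -0.28 on ALF. Their part in the channel differences was not tested.

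In KO and Mu-RE muscle those of the 29 channel genes that passed were lower on TRF. In KO muscle 3 of the 29 were called, all lower on TRF (14.2% of all genes, 4.78% higher and 9.38% lower, with 1 gene higher and 1 lower under the length covariate), namely Kcnq5 (-0.45), Kcnma1 (-0.30) and Clcn4 (-0.17), and none was kept under every alternative. In Mu-RE muscle 4 were called, all lower (16.9% of all genes, 9.05% higher and 7.87% lower), among them Kcnq5 (-0.52), Kcnma1 (-0.44) and Kcnj11 (-0.18). Kcnq5 and Kcnma1 kept their calls there. Scn3b, of low abundance, was higher on TRF by 0.60 in KO and 0.48 in Mu-RE muscle. In old wild-type muscle 0 genes were called by limma, with 5 of the 29 at an unadjusted p under 0.05 and 0.142% of all genes called (0.122% higher and 0.0203% lower), and 1 under the length covariate.

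The difference between genotypes in the response to feeding was tested as (KO on TRF minus ALF) minus (WT on TRF minus ALF). Of the 29 genes 9 were called, all negative, while 27.5% of all genes were called, 11% positive (1080 genes) and 16.6% negative. Kcna5 was at -0.95 (SE 0.21, adjusted p = 0.000864). Its mean was 1.19 on TRF and 1.54 on ALF in KO muscle, against 1.32 on TRF and 0.73 on ALF in WT muscle. Kcnma1 was at -0.56, Scn4a at -0.54, Cacna1s at -0.39, Kcnc1 at -0.35, Kcnj12 at -0.33, Clcn6 at -0.31 and Kcnn1 at -0.24. With the length covariate 1 gene was called, Kcna5, and the Cacna1s value turned to 0.00. Of the low genes Kcna1 (-1.17), Cacna1h (-0.99) and Scn3b (0.79) were among those called. The same test of the difference was passed, with a negative value, by 4 of 4 endothelial markers (median -0.74), 4 of 5 mural markers (median -0.60), 2 of 3 Schwann and nerve markers (median -0.89) and 1 of 5 fibre markers. Their part in these values was not tested.

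Ageing in wild-type muscle changed the gamma subunit Cacng1 most among the 29 genes of the main tests. Its mean was 7.08 ± 0.23 at 10 weeks (n = 23), 7.39 ± 0.29 at 26 weeks (n = 22) and 7.89 ± 0.30 in old mice (SD, n = 24). Old mice lay between 7.31 and 8.43 (median 7.92) and mice of 10 weeks between 6.72 and 7.58 (median 6.99), a difference of 0.81 (SE 0.07, 1.75-fold, adjusted p = 1.58e-12). Between old mice and mice of 10 weeks, 15 of the 29 genes were called, 11 higher and 4 lower (41.5% of all genes, 23.8% higher and 17.7% lower), with a median of 0.16 against 0.03. Kcnq5 was higher by 0.45, Kcnj12 by 0.27 and Scn4b by 0.25, and Kcnj2, Kcnc1, Kcna7 and Clcn4 were lower by 0.32, 0.30, 0.16 and 0.11. Of the 15 calls 7 were kept under each alternative, and the rises of Scn4b and Kcnc4 were among those lost after quantile normalization. The split was 17 and 4 with the length covariate and 8 and 4 after quantile normalization. Cacna2d4 was at 0.59, 0.42 and -0.75 at 10 weeks, at 26 weeks and in old mice, and was lower in old mice than at 26 weeks by 1.16 (SE 0.16, adjusted p = 1.82e-06). Kcne1l was higher in old mice than at 10 weeks by 1.22, while Cacna1g and Cacnb3 were lower by 1.15 and 0.97.

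Steps between neighbouring ages were smaller. From 26 weeks against 10 weeks 8 of the 29 were called, 6 higher and 2 lower (37.0% of all genes, 20.9% higher and 16.1% lower), and none kept its call under every alternative. The split was 6 and 0 with the length covariate and 2 and 5 after quantile normalization. Between old mice and mice of 26 weeks 6 were called, all higher (24.2% of all genes, 12.9% higher and 11.2% lower, with 4 higher and 3 lower under the length covariate and 7 and 1 after quantile normalization), and Cacng1 (0.49) kept its call throughout. Vascular mural markers were lower in 4 of 5 and endothelial markers in 4 of 4 at 26 against 10 weeks. Denervation markers were higher in 3 of 3 in old mice against 10 weeks, with a summed median of 23.7 FPKM (range 14.2 to 65.7) in old mice and 16.1 (range 11.4 to 25.5) at 10 weeks. In the same comparison endothelial markers were lower in 4 of 4 (median -0.56), fibroblast markers in 2 of 2 (median -2.27), Schwann and nerve markers in 2 of 3 (median -0.75), macrophage and lymphoid markers in 2 of 2, mural markers in 1 of 5 and the satellite cell marker too, while 3 of 5 fibre markers and 2 of 2 red blood cell markers were higher. Their part in the channel differences was not tested.

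How many channel transcripts were called as cycling in the day differed between groups. The median amplitude of the 29 genes ran from 0.07 to 0.24 over the 15 groups, and that of all genes from 0.07 to 0.19. Single genes reached more, as given below. Rhythm was read as the amplitude and peak time of a 24 h cosine in each group alone. In WT muscle at 10 weeks 4 of the 29 genes cycled (5.84% of all genes). They were Kcna5 (amplitude 0.40, peak at ZT 11.6), Kcnc1 (0.30, ZT 21.6), Cacng1 (0.16, ZT 10.6) and Scnm1 (0.15, ZT 12.1), none of which kept its call under every alternative. In WT muscle on TRF 11 cycled, a share of the 29 close to that of all genes (37.8%), and 9 of them peaked between ZT 20 and ZT 4, a window that held 41.8% of all 3732 cycling genes. Kcnc1 had the largest amplitude, 0.47 (SE 0.06, 1.93-fold from trough to peak, adjusted p = 2.99e-05), with a peak at ZT 22.2. Its means were 4.57, 4.28, 3.92, 3.61, 4.33 and 4.59 at ZT 0, 4, 8, 12, 16 and 20 (SD 0.09 to 0.29, n = 4 each). The level was thus highest around the change from dark to light and lowest at ZT 12.

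Channels of excitation and the pore of the energy-sensing current were among the 11 that cycled in WT muscle on TRF. Kcnj11 (ENSMUSG00000096146, chromosome 7, 46093953 to 46100764, minus strand) had an amplitude of 0.38 with a peak at ZT 0.807 (adjusted p = 6.96e-05). Its means were 6.15, 5.94, 5.79, 5.24, 5.61 and 5.86 at ZT 0 to 20. Cacna1s and Scn4a had amplitudes of 0.33 and 0.32 with peaks at ZT 2.54 and ZT 2.84. Scn4a was at 6.30 ± 0.05 at ZT 0 and 5.67 ± 0.42 at ZT 12 (SD, n = 4 each). Others were Kcnj12 (0.27, ZT 1.71), Clcn6 (0.24, ZT 1.08), Clcn3 (0.23, ZT 14.7), Kcnc4 (0.22, ZT 24.0) and Kcna7 (0.19, ZT 0.864). Kcnc1, Kcnj11, Cacna1s and Scn4a kept their calls under each alternative. In these libraries the length slope ran from -0.305 at ZT 12 to -0.186 at ZT 8. With it as a covariate the amplitudes were 0.42 for Kcnc1, 0.29 for Kcnj11 and 0.21 for Cacna1s and for Scn4a. Those of Clcn3, Kcnc4 and Kcna7 were 0.32, 0.24 and 0.23, above their main values. Kcnj12 (0.20, adjusted p = 0.0598 by limma) and Clcn6 (0.15, adjusted p = 0.215) lost their calls with it. Its part in the rhythms was not tested. Of the low genes 8 cycled (33.8% of that fit), with Kcnf1 (1.06, ZT 21.1) and Kcna1 (0.75, ZT 2.43) the largest. Kcna1 was at -0.97 ± 0.26 at ZT 0 and -2.62 ± 0.22 at ZT 12 (SD, n = 4 each).

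On ALF at 26 weeks 0 of the 29 cycled in WT muscle (2 at an unadjusted p under 0.05, with 1.04% of all genes called by limma). The difference in rhythm between TRF and ALF was called for Kcna5 only (adjusted p = 0.0334, with 3.92% of all genes called), and that call was lost with the replicate block and in 3 of the 4 fits that left out 1 animal per time point. Kcna5 (ENSMUSG00000045534, chromosome 6, 126532551 to 126535412, minus strand) was at 1.59, 1.38, 1.36, 1.04, 1.11 and 1.45 at ZT 0 to 20 on TRF, against 0.26, 0.43, 0.64, 1.46, 0.87 and 0.68 on ALF. On ALF its highest mean was at ZT 12, which on TRF held its lowest.

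**Figure D5:**
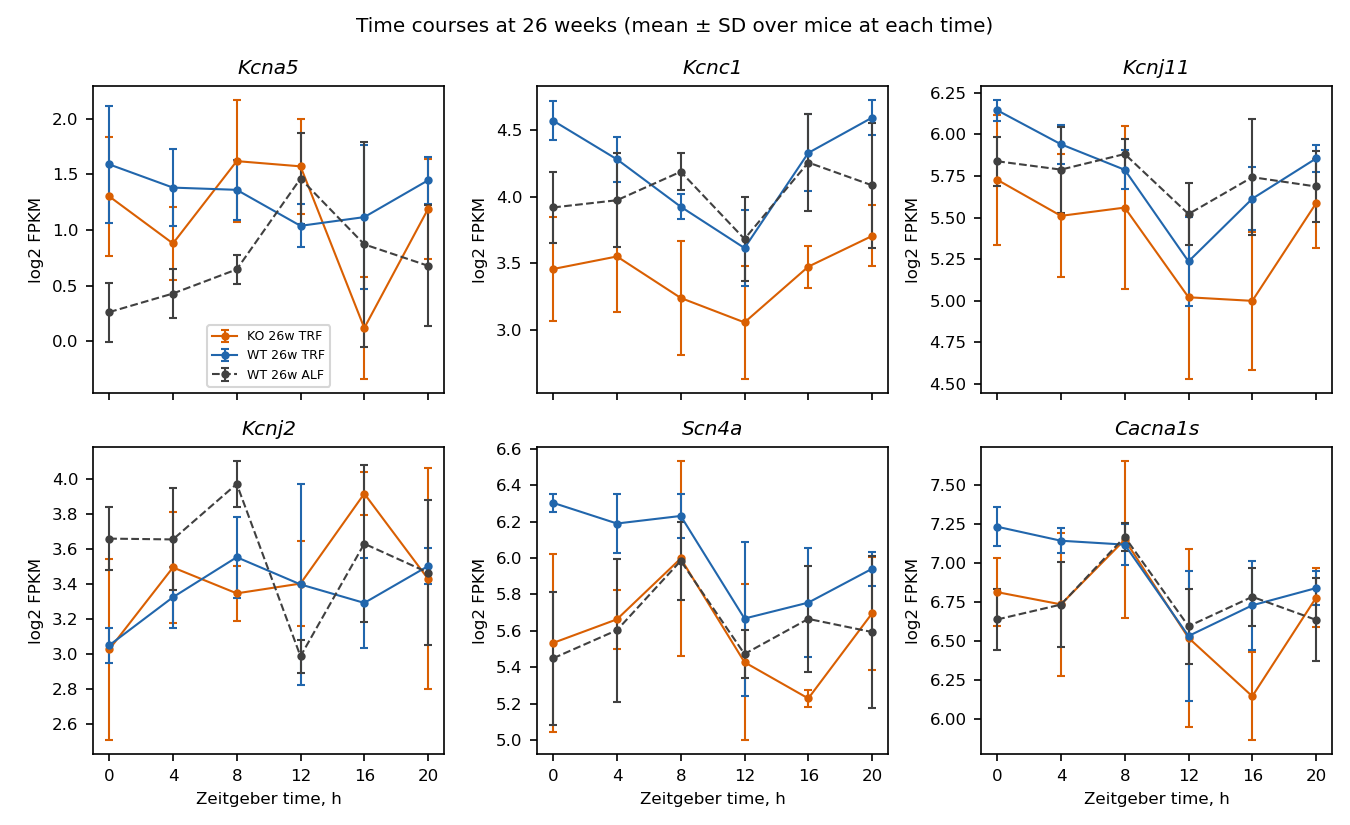
Mean log2 FPKM with SD of Kcna5, Kcnc1, Kcnj11, Kcnj2, Scn4a and Cacna1s at 6 zeitgeber times in muscle of 26 weeks, in KO on TRF, WT on TRF and WT on ALF. Kcnc1 and Kcnj11 in WT muscle on TRF fall to their lowest at ZT 12, at 3.61 and 5.24, and Kcna5 on ALF is highest there, at 1.46.

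In Br-RE muscle at 10 weeks 14 of the 29 cycled (29.0% of all genes), and 12 peaked between ZT 12 and ZT 20, a window that held 54.0% of all 2862 cycling genes. The largest were Kcna5 (0.71, ZT 15.1), Kcng4 (0.62, ZT 16.0), Kcnj12 (0.50, ZT 16.1), Kcnc1 (0.45, ZT 16.9), Scn4a (0.39, ZT 16.6), Kcnj11 (0.38, ZT 15.9) and Cacna1s (0.36, ZT 16.2). Others were Kcnq5 (0.30), Scn4b (0.26), Kcnj8 (0.25), Cacnb1 (0.19), Scnm1 (0.18) and Kcnn1 (0.18), of which Kcnj8 and Scnm1 peaked near ZT 3.42. In the same libraries the length slope ran from -0.306 at ZT 4 to -0.216 at ZT 20. With that slope as a covariate 0 of the 14 were called by limma, and the amplitude of Kcnj12 was 0.27 (adjusted p = 0.185), that of Scn4a 0.16 and that of Kcna5 0.77 (adjusted p = 0.209). At 26 weeks 1 gene cycled in Br-RE muscle (0.69% of all genes). This was Kcna5, with an amplitude of 0.83 (SE 0.09, 3.16-fold, adjusted p = 0.000175), a peak just after ZT 12 and a call kept under each alternative. Its means were 0.43, 0.84, 1.41, 2.21, 1.71 and 0.90 at ZT 0 to 20.

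Few channel rhythms were called in the other groups. In KO muscle 0 cycled at 10 weeks and 0 at 26 weeks (1 each at an unadjusted p under 0.05, with 0.071% and 0.0% of all genes called by limma). On TRF Kcnj11 was called in KO muscle (amplitude 0.38, ZT 1.51, adjusted p = 0.0425, with 6.2% of all genes called), a call lost in all 4 fits that left out animals. Kcnj2, the classical inward rectifier (ENSMUSG00000041695, chromosome 11, 111066164 to 111076821, plus strand), was called in Mu-RE muscle on TRF (0.26, ZT 0.0856, with 6.97% of all genes called). Kcng4 was called in old mice on ALF (0.38, ZT 23.7, 1.41% of all genes) and Kcnj8 in old mice on TRF (0.25, ZT 4.55, 5.71% of all genes). In Mu-RE muscle on ALF 0 were called at either age (4 each at an unadjusted p under 0.05, with 0.071% and 0.0% of all genes called by limma). In RE-RE muscle 0 were called at 10 weeks and 0 at 26 weeks (2 and 4 at an unadjusted p under 0.05, with 0.588% and 0.76% of all genes called by limma). Clcn1 was called in none of the 15 groups, with amplitudes from 0.03 to 0.18. Among the low genes Kcnf1 cycled in RE-RE muscle at 10 weeks (0.98, ZT 20.7) and in Mu-RE muscle on TRF (1.36, ZT 19.6, 6.59-fold), and the second of these calls was kept under each alternative. In Br-RE muscle at 10 weeks Kcnf1 (0.68, ZT 16.7) and Kcnk6 (0.34, ZT 18.4) were called. On TRF the low genes called included Kcnn3 in Mu-RE muscle (0.46, ZT 4.15) and Kcne4 in old mice (0.75, ZT 13.8).

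In the genotype pairs tested for a difference in rhythm, none of the 29 genes was called. For KO against WT this was 0 at both ages by limma, with 2 each at an unadjusted p under 0.05 and 0.517% and 0.172% of all genes called. For RE-RE against Br-RE it was 0 at both ages, with 9 at 10 weeks and 2 at 26 weeks at an unadjusted p under 0.05, and 0.152% and 0.0913% of all genes called. For Br-RE against KO at 10 weeks it was 0, with 12 at an unadjusted p under 0.05 and 0.913% of all genes called. For old against 26-week wild-type mice it was 0, with 0 at an unadjusted p under 0.05 and 0.0% of all genes called. The difference in rhythm between KO and WT muscle on TRF, and that of any Mu-RE pair, was not tested. A rhythm called in WT and not in KO muscle is therefore not shown to differ between them.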

How the data were processed

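RNA of snap-frozen tibialis anterior was sequenced as 150 bp read pairs, per the labels' protocols. The submitters' processing notes name HISAT2 2.1.0 and the GRCm38 build, featureCounts 1.6.2, FastQC 0.11.8, limma 3.44.1, Trim Galore 0.5.0 and edgeR 3.30.0. The deposited table holds log2 FPKM values made by the authors, with 0.01 FPKM as the offset seen in the values, and its columns were all mapped to samples (0 unused). Depth was estimated from the step of 1 read, and 92.1 to 98.3% of low values were whole reads to within 0.1. Each comparison was fitted to the libraries of its groups with limma 3.58.1 in R 4.3.3 (trend and robust), with a level, a 24 h cosine and sine for each group, and sex. Adjusted p-values are Benjamini-Hochberg over the 9862 genes with a mean of at least 0, or over 12849 genes for members between -2 and 0. The fits were tested on simulated data. Tables and figures used Python 3.11.15, pandas 2.3.3, numpy 2.4.6, scipy 1.17.1 and matplotlib 3.10.9.

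Genes named were a set of 16 fibre channels plus the 10 called genes of largest change, with others to account for the members. Results of 5 single genes are not reported here, while counts over the 53 genes include them. The members and all lists were chosen with earlier results of these data known. Alternatives were the filter on low values, 1 FPKM added, quantile normalization, the slope of each library's values on log2 exon length as a covariate, a replicate block, leaving out 1 animal per time point, and leaving out 9 libraries of low correlation. Replicate numbers did not pair the samples: over 21 to 24 pairs per comparison the median correlation of same-numbered samples was -0.054 to 0.163. Where nothing states separate litters or days, p-values measure the spread between these animals only.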

Additional observations from a re-analysis of the deposited data

Results flagged for a closer look

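In 14 cases the effect of a contrast differed between groups, tested with an interaction term in limma over all genes. The age cases are the KO-WT difference at 26 weeks minus that at 10 weeks. These were -0.83 for Kcnc4, -0.75 for Cacng7, -0.56 for Kcnq5, -0.51 for Scn4b, 0.35 for Kcnc1 and 0.59 for Kcnma1.

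The feeding cases are the TRF-ALF difference in KO muscle minus that in WT muscle at 26 weeks. These were -0.95 for Kcna5, -0.56 for Kcnma1, -0.54 for Scn4a, -0.39 for Cacna1s, -0.35 for Kcnc1, -0.33 for Kcnj12, -0.31 for Clcn6 and -0.24 for Kcnn1. With the length covariate only Kcna5 among these 8 passed. The length slope averaged -0.292 in KO and -0.232 in WT muscle on TRF, and -0.25 in KO and -0.28 in WT muscle on ALF.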

How the results depend on the processing

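Counts of called channel genes moved as follows. The main fit holds 29 of the 53 genes, the lower filter 47 and no filter all 53, so counts with these filters cover more genes. With the lower filter 39.9% and 45.1% of all genes were called for KO against WT at 10 and 26 weeks. For RE-RE against Br-RE at 26 weeks it was 33.4%. For KO against WT, 16 calls at 10 weeks became 26 with a mean of at least -2 and 29 with no filter, 14 at 26 weeks became 24 and 28, and 22 on TRF became 36 with no filter and 14 with the length covariate. For Mu-RE against KO, with no filter, 17 at 10 weeks became 27 and 14 on TRF became 25. For RE-RE against Br-RE at 26 weeks, 11 became 19 and 22 with these filters. For TRF against ALF, 4 in Mu-RE became 2 with the length covariate, 0 in old mice became 1 with it, and 3 in KO became 5 with the lower filter, 5 with the replicate block and 7 without the libraries of low correlation. For age, 8 at 26 against 10 weeks became 13 and 14 with the filters and 5 with the block, 6 in old against 26 weeks became 12 and 14, and 15 in old against 10 weeks became 24 with no filter. The age interaction of 7 became 12 with no filter and 11 with the length covariate, and the feeding interaction of 9 became 1 with the covariate and 16 without the libraries of low correlation. Rhythm counts with the length covariate were 0 in Br-RE at 10 weeks (main 14), 1 in RE-RE at 26 weeks (0), and 3 each in Mu-RE, KO and old mice on TRF (1 each). With the lower filter and with none they were 1 and 1 in RE-RE at 10 weeks (0), 19 and 17 in WT on TRF (11), 3 and 3 in Mu-RE on TRF, and 2 and 2 in old mice on TRF. Quantile normalization gave 0 in KO and in old mice on TRF. Without the libraries of low correlation there were 2 in WT at 10 weeks (4), 0 in KO on TRF, and 3 rhythm differences between RE-RE and Br-RE at 10 weeks (0).

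Leaving out 1 animal per time point gave 14 to 17, 12 to 16 and 14 to 21 calls for KO against WT at 10 weeks, at 26 weeks and on TRF, 13 to 14, 15 to 17 and 11 to 12 for Mu-RE against KO, and 10 to 15 and 10 to 11 for RE-RE against Br-RE. It gave 3 to 13, 2 to 2 and 0 to 4 for TRF in WT, Mu-RE and KO, and 4 to 8, 2 to 11 and 11 to 17 for 26 against 10 weeks, old against 26 and old against 10. The age and feeding interactions gave 5 to 7 and 2 to 7. Rhythms gave 0 to 2 in WT at 10 weeks, 8 to 16 and 1 to 1 in Br-RE at 10 and 26 weeks, 6 to 10, 0 to 1 and 0 to 0 in WT, Mu-RE and KO on TRF, 0 to 1 in old mice on ALF and 0 to 1 on TRF. Rhythm differences gave 0 to 2 for WT on TRF against ALF and 0 to 3 for Br-RE against KO. The replicate block took the rhythm difference of WT on TRF against ALF to 0, beside the counts above, although the numbers did not pair the samples. Of 3173 settings over 302 calls of single genes, 2714 kept the call, 457 lost it and 2 reversed: the Cacna2d4 age interaction was 0.0406 with 1 FPKM added, and the Cacna1s feeding interaction 0.0015 with the length covariate. Apart from these settings' own construction, the cause was not tested.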

Other observations

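Kcng2, a modifier subunit below both filters, had group means of -3.58 and -3.35 in RE-RE against -2.19 and -1.63 in Br-RE muscle at 10 and 26 weeks. In Mu-RE muscle they were -3.23, -2.51 and -2.03 at 10 weeks, at 26 weeks and on TRF.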
